A study of Mus musculus with 14 samples.

Results

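The keratins examined here are 10 genes that mark the cell layers of the mouse mammary epithelium: Krt5, Krt14, Krt15, Krt17 and Krt6a, listed as basal, and Krt7, Krt8, Krt18, Krt19 and Krt23, listed as luminal. They were taken by gene symbol, and 10 of 10 were present among the 16124 genes of the expression table. The data are RNA-seq of mammary epithelial cells (MECs) from 7 wild-type (WT) and 7 Usp22 OE/OE mice, all females aged 3.5 months, with 1 library per mouse. Each Usp22 OE/OE mouse was matched to a WT littermate, and the pairs carry the numbers 1, 3, 4, 5, 6, 7 and 8. Usp22 OE/OE mice are homozygous for a FLAG- and MYC-tagged mouse Usp22 cDNA at ROSA26, which the CAGGS promoter drives once ZP3-Cre has removed a stop cassette. ZP3-Cre acts in the oocyte, so overexpression is ubiquitous and includes the stroma. The MECs were not sorted. They were pelleted as organoids by short centrifugation of digested glands, so each library can hold ductal cells of every layer and some other cells.

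Keratins are the intermediate filament proteins of epithelia. A type I chain (here Krt14, Krt15, Krt17, Krt18, Krt19 and Krt23) pairs with a type II chain (Krt5, Krt6a, Krt7 and Krt8) to build the filament. In the mammary duct, Krt5 and Krt14 are the classical pair of the basal, contractile myoepithelial layer, and Krt8 and Krt18 are the pair of the luminal layer that lines the duct. Krt17 and Krt15 are found in basal epithelial cells and in hair follicles. Krt6a is a hair follicle and wound keratin that some ductal cells also make. Krt7 and Krt19 are luminal and simple-epithelial keratins. The ratio of basal to luminal keratins is often read as a measure of the balance between the layers, and it was asked here whether it, or any member, differed with Usp22 overexpression.

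The libraries held between 20125106 and 41835978 counted fragments. Usp22 lay between 3500 and 5380 normalized counts in WT and between 74948 and 144288 in Usp22 OE/OE, so each library matched its label. Values are normalized counts, the fragments counted on a gene divided by a scaling factor for its library. Levels are compared between genes per kb of annotated exon, and changes are given as log2 fold changes of Usp22 OE/OE over WT. In these bulk samples, fewer cells of a type and less RNA per cell cannot be told apart.

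The type II and type I genes lie in separate clusters, given here in GRCm38. On chromosome 15, Krt7 (101411043 to 101430313), Krt6a (101689910 to 101694307), Krt5 (101707070 to 101712898), Krt8 (101996698 to 102004482) and the type I gene Krt18 (102028180 to 102032027) span 620985 bases. Krt8 and Krt18 start back to back on opposite strands with 23697 bases between them, and Krt18 is the only type I member on this chromosome. On chromosome 11, Krt23 (99477974 to 99493137), Krt15 (100131758 to 100135928), Krt19 (100140810 to 100148665), Krt14 (100203162 to 100207548) and Krt17 (100256217 to 100261029) span 783056 bases, all on the minus strand.

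The sequences before the start sites of Krt5, Krt8 and Krt18 are printed because the differences between littermates in Krt8 and Krt18 moved together. Krt5 is shown as their basal counterpart. They come from RefSeq (GRCm38.p6), which had an entry for 6 of the 10 members, and they are cut at the outermost annotated start so that no transcribed base is shown. Capitals mark ATAAA and CACCC on either strand, so TTTAT and GGGTG as well. The Krt5 stretch is chr15:101712906-101713155 (minus strand), that of Krt8 is chr15:102004483-102004592 (minus strand) and that of Krt18 is chr15:102027966-102028179 (plus strand).
Krt5: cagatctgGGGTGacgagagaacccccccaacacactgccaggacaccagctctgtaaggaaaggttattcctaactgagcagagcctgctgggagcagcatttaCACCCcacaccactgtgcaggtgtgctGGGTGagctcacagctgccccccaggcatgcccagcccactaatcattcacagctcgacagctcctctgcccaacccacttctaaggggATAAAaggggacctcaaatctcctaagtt
Krt8: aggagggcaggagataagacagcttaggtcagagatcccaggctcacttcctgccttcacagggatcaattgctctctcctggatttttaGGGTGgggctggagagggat
Krt18: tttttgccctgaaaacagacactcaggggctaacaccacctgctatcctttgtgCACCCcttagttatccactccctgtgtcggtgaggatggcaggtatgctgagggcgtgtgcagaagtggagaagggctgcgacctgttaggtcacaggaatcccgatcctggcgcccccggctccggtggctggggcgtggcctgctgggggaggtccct
ATAAA, the core of a TATA box, stood in the Krt5 stretch, beginning 29 bases before the start site. It was not in the Krt8 or Krt18 stretch. The windows of Krt14 and Krt7 lie inside the annotated genes, so the other 4 members are counted here, over windows of 250 bases. ATAAA was in 2 of the 4 (Krt5 and Krt23) and in 37.3% of all 32851 promoters of the table. CACCC was in 3 of 4 (Krt5, Krt8 and Krt18) and in 52.0% of all. GGGCGG and TGANTCA were in 0 of 4, and in 32.7% and 6.75% of all. These are matches of letters only.

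Luminal keratins were the most abundant members in both genotypes. Per kb of exon, Krt8 had a mean of 67704 ± 14942 normalized counts in WT and 69269 ± 12325 in Usp22 OE/OE (SD, n = 7 each). Krt18 followed with 55484 ± 10040 and 58328 ± 14667, and Krt19 with 39743 ± 7884 and 43314 ± 12607. The basal keratins Krt14 (20198 ± 6650 and 20408 ± 10879) and Krt17 (15193 ± 5593 and 14725 ± 11419) came next, then Krt5 (5780 ± 2188 and 5900 ± 2794). Krt7 had 2626 ± 498 and 2594 ± 721, Krt6a 1810 ± 1292 and 2818 ± 1923, and Krt15 1091 ± 737 and 1711 ± 2899. Krt23 was lowest, with 205 ± 96.3 and 265 ± 175.

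Most steps of this order recurred from mouse to mouse, although the ranges of all neighbours over the 14 libraries overlapped. Within a library, Krt8 was above Krt18 in 12 of 14, Krt18 above Krt19 in 13, Krt19 above Krt14 in 13 and Krt14 above Krt17 in 13. Krt17 was above Krt5 in 14 of 14, Krt5 above Krt7 in 13 and Krt15 above Krt23 in 14. Per kb of exon, the order of Krt7, Krt6a and Krt15 was not stable: Krt7 was above Krt6a in 8 of 14 libraries and Krt6a above Krt15 in 9. The annotated exons of Krt7 add up to 7049 bases, more than in any other member. With its longest coding transcript (4094 bases) the mean over 14 libraries rose from 2610 to 4493 per kb, which stayed below the 5840 of Krt5. Krt6a was at 2456 on that basis, so the closeness of Krt7 and Krt6a depended on the length used. Krt19 rose from 41529 to 48880.5, nearer to the 56906 of Krt18. The counts of libraries above are per kb of annotated exon and do not cover the transcript lengths.

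**Figure D1:**
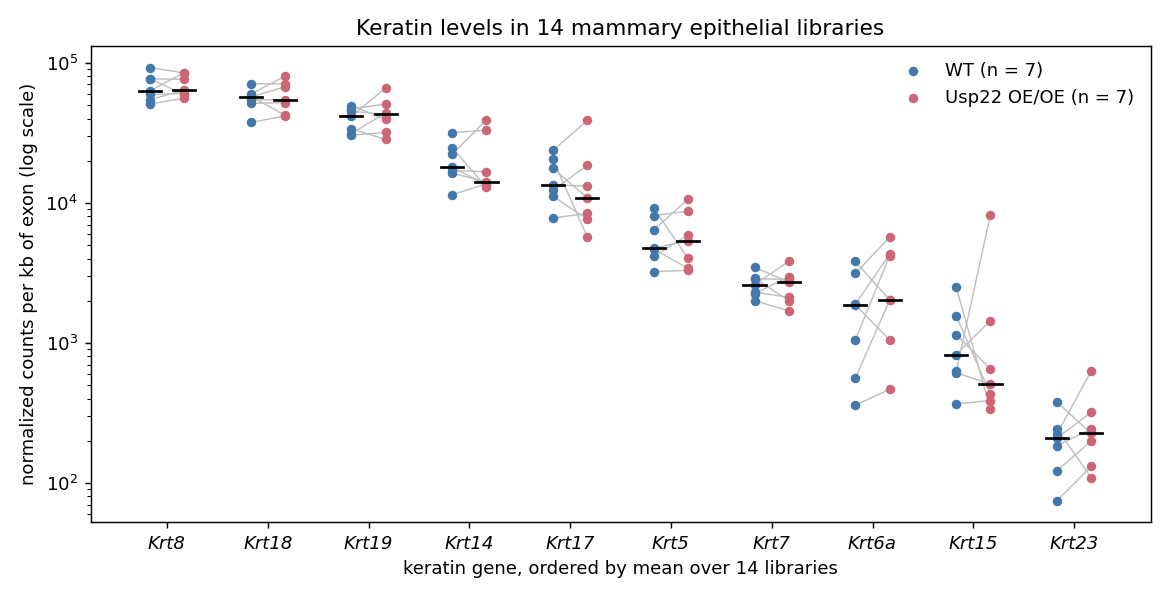
Normalized counts per kb of exon (log scale) of the 10 keratins in 7 WT (blue) and 7 Usp22 OE/OE (red) libraries, with grey lines joining littermates and black bars at the medians. The genotypes overlap for each gene, and Krt6a, Krt15 and Krt23 spread most.

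Together the 10 keratins took 0.919% to 1.36% of all normalized counts in WT (median 1.04%) and 0.861% to 1.65% in Usp22 OE/OE (median 1.10%). Krt8 alone made up between 29.1% and 39.5% of the keratin counts. Krt5 and Krt14 together made up between 7.12% and 21.2%. Summed per kb, the type II members were below the type I members in every library, with a ratio from 0.455 to 0.711. Within the luminal pair, Krt8 per kb was 0.947 to 1.42 times Krt18. Within the basal pair, Krt5 per kb was 0.202 to 0.378 times Krt14.

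The basal members varied more between mice than the luminal pair. Krt14 ranged from 20087 through a median of 31724 to 55752 normalized counts in WT, and from 22718 through 24910 to 68596 in Usp22 OE/OE. Its highest values were in both mice of pair 4 and in the Usp22 OE/OE mouse of pair 3, and the genotypes overlapped. Krt5 ranged from 7093 through 10431 to 20114 in WT and from 7231 through 11782 to 23279 in Usp22 OE/OE. The highest over the lowest library was 3.28-fold for Krt5 and 3.41-fold for Krt14.

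Krt17, a basal and follicular keratin, ranged from 12095 through 20832 to 36695 in WT and from 8844 through 16858 to 60144 in Usp22 OE/OE. Krt15, which marks basal cells of stratified epithelium and the hair follicle, ranged from 648 through 1456 to 4421 in WT and from 591 through 897 to 14540 in Usp22 OE/OE. Both reached their highest value in the Usp22 OE/OE mouse of pair 4, where Krt15 was at 14540 against 1105 in its WT littermate. In pair 1 the order was opposite, with 4421 in the WT and 591 in the Usp22 OE/OE mouse. Krt15 thus spread 24.6-fold over the libraries, more than any other member, and Krt17 spread 6.80-fold.

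Krt6a ranged from 869 through 4521 to 9214 normalized counts in WT and from 1124 through 4913 to 13732 in Usp22 OE/OE. Its lowest values were in both mice of pair 3 (869 and 1124), where the Usp22 OE/OE mouse had the highest Krt14 of all libraries, and its highest value was in the Usp22 OE/OE mouse of pair 7 (13732). Krt6a shares much of its sequence with a close relative. Of the windows of 75 bases (the read length) in its transcripts, 51.1% also occur in transcripts of another gene, 33.0% in Krt6b. Krt6b was at 0 to 524 normalized counts. How reads that fit several genes were counted is not given in the sources used here, so the level of Krt6a is less certain than that of the others.

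Krt8 ranged from 99133 through 123431 to 180962 normalized counts in WT and from 109523 through 124875 to 166156 in Usp22 OE/OE, only 1.83-fold from the lowest to the highest library. Krt18 ranged from 53879 through 81904 to 101758 in WT and from 59927 through 78468 to 114766 in Usp22 OE/OE. The lowest values of both genes in each genotype were in pair 5, with Krt18 in the Usp22 OE/OE mouse of pair 8 close to the lowest (60652 against 59927). A processed pseudogene, Krt8-ps, holds 22.0% of the windows of Krt8, but its own count was only 0.623% to 0.859% of that of Krt8.

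Krt19 ranged from 56350 through 76873 to 91721 in WT and from 52547 through 79275 to 122856 in Usp22 OE/OE. Krt7 ranged from 14098 through 18341 to 24474 in WT and from 11949 through 19106 to 26957 in Usp22 OE/OE. Krt23, a low type I keratin, ranged from 117 through 326 to 589 in WT and from 170 through 354 to 985 in Usp22 OE/OE. Krt15, Krt17, Krt18, Krt19 and Krt23 shared no window with another gene. Krt5 shared 7.77% of its windows, most of them with Krt6a, Krt14 shared 5.71% with Krt16, and Krt7 shared 0.0563%.

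Littermates were closer in most keratin levels than unrelated libraries would be on average. Differences between the 7 pairs held 82.2% of the spread of Krt18 on the log2 scale, 78.7% of that of Krt8 and 77.6% of that of Krt14. For 9 of the 10 members the share was at least 63.1%, the exception being Krt15 with 36.5%. Unrelated libraries would put 46.2% of the spread between pairs on average. The comparison of genotypes was therefore made within pairs.

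No member passed the test between genotypes. With limma, fitted over all 16124 genes with the littermate pair as a block, 0 of the 10 keratins had an unadjusted p of 0.05 or less, against 614 genes, 3.81%, in the whole table (315 higher, 1.95%, and 299 lower, 1.85%). The edgeR and DESeq2 tests on the recovered fragments also called 0 of 10. The fold change was above 0 for 5 members and below 0 for 5, with a median of 0.015, against -0.0015 over all genes. No member moved the same way in all 7 pairs, which 243 genes, 1.51%, of the table did. All adjusted p-values of the members were 1.00 in limma.

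The luminal keratins showed no difference beyond their errors. Krt8 differed by 0.04 ± 0.14 (log2 fold change ± SE, 95% interval -0.28 to 0.36, limma p = 0.770, exact sign-flip p = 0.656) and was higher in 4 of 7 pairs. Krt18 differed by 0.05 ± 0.13 (-0.24 to 0.35, limma p = 0.683, exact sign-flip p = 0.656) and was higher in 5 of 7. Krt19 differed by 0.10 ± 0.15 (-0.24 to 0.43) and Krt7 by -0.04 ± 0.14 (-0.35 to 0.26).

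For the basal pair, Krt5 differed by -0.01 ± 0.20 (-0.47 to 0.44, limma p = 0.946, exact sign-flip p = 1.00) and Krt14 by -0.07 ± 0.18 (-0.48 to 0.34, limma p = 0.724, exact sign-flip p = 0.734). Krt17 differed by -0.24 ± 0.27 (-0.86 to 0.37) and Krt15 by -0.18 ± 0.64 (-1.61 to 1.26). Krt23 differed by 0.30 ± 0.29 (-0.35 to 0.95). Its fold change was 0.10 without pair 4, 0.55 without pair 5 and 0.84 with a score of pan-epithelial genes as a covariate, and it passed under none of these. The pair ratios of Krt15 ran from -2.90 in pair 1 to 3.72 in pair 4, and their SD of 2.12 was the largest of the members, against 0.26 for Krt8.

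Krt6a had the largest difference and the smallest p. It was 0.65 ± 0.36 higher in Usp22 OE/OE (95% interval -0.16 to 1.45, limma p = 0.103), with a positive ratio in 5 of 7 pairs, and p = 0.188 when the signs of the 7 pair ratios were flipped in all ways (exact, two-sided). The ratios were 2.00 in pair 1 and 1.85 in pair 5, at least 0.37 in pairs 3, 6 and 7, and -0.83 in pair 4 and -0.91 in pair 8. Without pair 4 the limma p was 0.0219 (log2 fold change 0.89) and without pair 8 it was 0.0269 (0.90). With a score of pan-epithelial genes as a covariate the difference was -0.21. Exact sign-flip p-values of the other 9 members lay between 0.422 and 1, where 0.0156 is the smallest that 7 pairs can give.

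**Figure D2:**
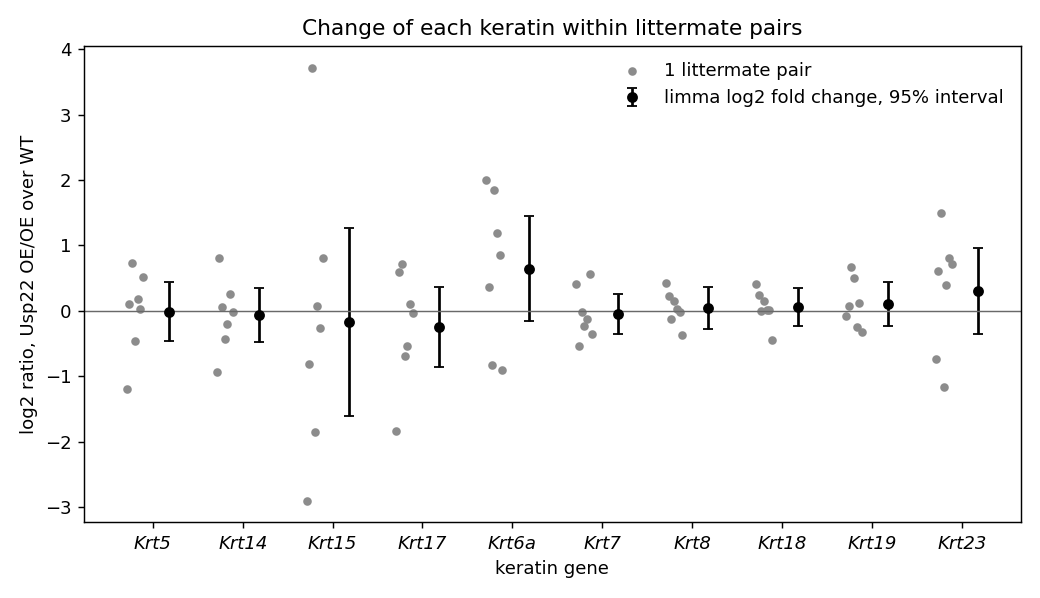
Log2 ratio of Usp22 OE/OE over WT for each keratin, as grey points for the 7 littermate pairs and as the limma log2 fold change with its 95% interval in black. All 10 intervals include 0, with the largest estimate for Krt6a (0.65) and the widest interval for Krt15.

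The ratio of Krt5 + Krt14 to Krt8 + Krt18 was below 1 in every library. It was lowest at 0.119, with a median of 0.247 and a highest value of 0.303 in WT, and it was 0.112, 0.190 and 0.396 in Usp22 OE/OE. The lowest ratios were in the Usp22 OE/OE mouse of pair 1 (0.112) and in both mice of pair 7 (0.119 in WT and 0.138 in Usp22 OE/OE). The highest was in the Usp22 OE/OE mouse of pair 3 (0.396), whose WT littermate had 0.302. The genotypes overlapped throughout. Per kb of exon the ratio ran from 0.103 to 0.364.

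Within pairs the log2 ratio changed by a mean of -0.10 ± 0.70 (SD, n = 7 pairs), and it was higher in 4 pairs and lower in 3. The differences were 0.53 in pair 8, 0.39 in pair 3, 0.30 in pair 4, 0.21 in pair 7, -0.11 in pair 6, -0.59 in pair 5 and -1.43 in pair 1. The mean was smaller than the spread between pairs, and its sign rested on pair 1, without which it was 0.12. In pair 1 the Usp22 OE/OE mouse had less of each of Krt5, Krt14, Krt15 and Krt17 (log2 ratios -1.19, -0.94, -2.90 and -1.84) and more Krt8 and Krt18 (0.43 and 0.41) than its littermate. That WT littermate was also high in the epidermal keratin Krt10 (1864 normalized counts, against a WT median of 49.4). The part of this in the ratio of pair 1 was not tested. Without pair 1 the fold changes of Krt5, Krt14, Krt15 and Krt17 were 0.18, 0.08, 0.28 and 0.02, and those of Krt8 and Krt18 were -0.02 and -0.01.

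**Figure D3:**
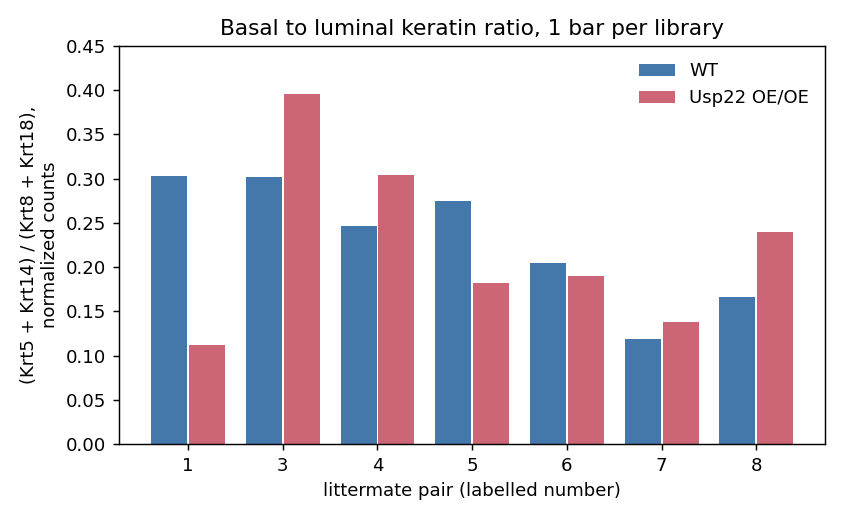
Ratio of the summed normalized counts of Krt5 and Krt14 to those of Krt8 and Krt18, with 1 bar per library, for WT (blue) and Usp22 OE/OE (red) in the 7 littermate pairs. The ratio is higher in Usp22 OE/OE in pairs 3, 4, 7 and 8 and lower in pairs 1, 5 and 6, with the largest gap in pair 1 (0.303 and 0.112).

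Keratins that form filaments together were compared across mice, within each genotype and over the pair ratios. These were 15 relations of log2 levels with 7 values each, tested by exact permutation and adjusted over the 15. Of these relations, that of Krt8 with Krt18 over the pair ratios was the closest. Over the pair log2 ratios, Pearson's r was 0.97 (exact permutation p = 0.000198, the smallest that 5040 orders can give, adjusted p = 0.00298) and Spearman's rank correlation was 1.00 (exact p = 0.000397, adjusted p = 0.00595). The order of the 7 pairs by Krt8 was thus that by Krt18, and r was 0.94 without the 2 pairs farthest from the median. By level, r was 0.75 in WT (exact permutation p = 0.0417, adjusted p = 0.0893) and 0.82 in Usp22 OE/OE (exact permutation p = 0.0383, adjusted p = 0.0893). It was 0.05 in WT and 0.55 in Usp22 OE/OE without the 2 farthest samples, so the relation in WT rested on those samples. Spearman's rank correlation was 0.68 in WT (exact p = 0.110, adjusted p = 0.235) and 0.96 in Usp22 OE/OE (exact p = 0.00278, adjusted p = 0.0208).

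By level, Krt5 and Krt14 had a higher Pearson's r than Krt8 and Krt18. In Usp22 OE/OE the rank correlation went the other way (0.82 against 0.96), and the difference was not tested. For Krt5 and Krt14, Pearson's r was 0.82 in WT (exact permutation p = 0.0218, adjusted p = 0.0893) and 0.90 in Usp22 OE/OE (exact permutation p = 0.00774, adjusted p = 0.0580). It was 0.96 and 0.88 without the 2 farthest samples. Spearman's rank correlation was 0.79 (exact p = 0.0480) and 0.82 (exact p = 0.0341), both with an adjusted p of 0.120. Neither passed the adjustment. Over the pair ratios r was 0.66 (exact permutation p = 0.106, adjusted p = 0.199) and Spearman's rank correlation 0.46 (exact p = 0.302, adjusted p = 0.504), and r was 0.32 without the 2 farthest pairs.

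The 2 sums, Krt5 + Krt14 and Krt8 + Krt18, were not seen to move together or apart. Pearson's r was 0.21 in WT (exact permutation p = 0.663), 0.30 in Usp22 OE/OE (exact permutation p = 0.511) and -0.48 over the pair ratios (exact permutation p = 0.266), with adjusted p-values between 0.400 and 0.711. Spearman's rank correlation was 0.04, 0.21 and -0.36 (exact p = 0.963, 0.662 and 0.444). Krt7 and Krt19 gave r of 0.45, 0.52 and 0.05 in the same order (exact permutation p = 0.303, 0.227 and 0.913), with Spearman's rank correlations of 0.29, 0.46 and 0.29 (exact p = 0.556, 0.302 and 0.556). The adjusted p-values of these 6 relations were at least 0.379 for r and 0.504 for Spearman's rank correlation. Without the 2 farthest samples r was 0.09, -0.45 and 0.53 for the sums and -0.27, 0.77 and 0.42 for Krt7 and Krt19.

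The correlations of Krt6a with Krt17 were negative. Pearson's r was -0.28 in WT (exact permutation p = 0.528, adjusted p = 0.610), -0.78 in Usp22 OE/OE (exact permutation p = 0.0365, adjusted p = 0.0893) and -0.77 over the pair ratios (exact permutation p = 0.0381, adjusted p = 0.0893). Spearman's rank correlation was -0.32 in WT and -0.79 in the other comparisons (exact p = 0.498, 0.0480 and 0.0480, adjusted p = 0.641, 0.120 and 0.120), and none passed the adjustment. Without the 2 farthest samples r was -0.61, -0.95 and -0.93.

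Some members correlated across their listing as basal or luminal. These relations were chosen after the values were seen, so they are descriptions without a test, and the 14 libraries include littermates. Over the 14 libraries Krt23, listed as luminal, had an r of 0.87 with Krt5 and 0.74 with Krt14. It was 0.03 with Krt8 and 0.39 with Krt18. Its r with Krt5 was 0.85 in WT, 0.92 in Usp22 OE/OE and 0.85 over the pair ratios (0.86, 0.82 and 0.83 without the 2 farthest samples). Krt6a, listed as basal, had an r of -0.69 with Krt5 and -0.67 with Krt14, 0.48 with Krt8 but only 0.07 with Krt18. With Krt14 alone, its r was -0.38 in WT, -0.91 in Usp22 OE/OE and -0.55 over the pair ratios (-0.62, -0.83 and -0.97 without the 2 farthest samples). Krt17 had an r of 0.85 with Krt14. Krt15 had an r of 0.79 with Krt17 over the 14 libraries, but 0.49 in WT, 0.89 in Usp22 OE/OE and 0.75 over the pair ratios. Without the 2 farthest samples these were 0.20, 0.90 and 0.23, so the relation in WT and over the pair ratios rested on those samples.

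**Figure D4:**
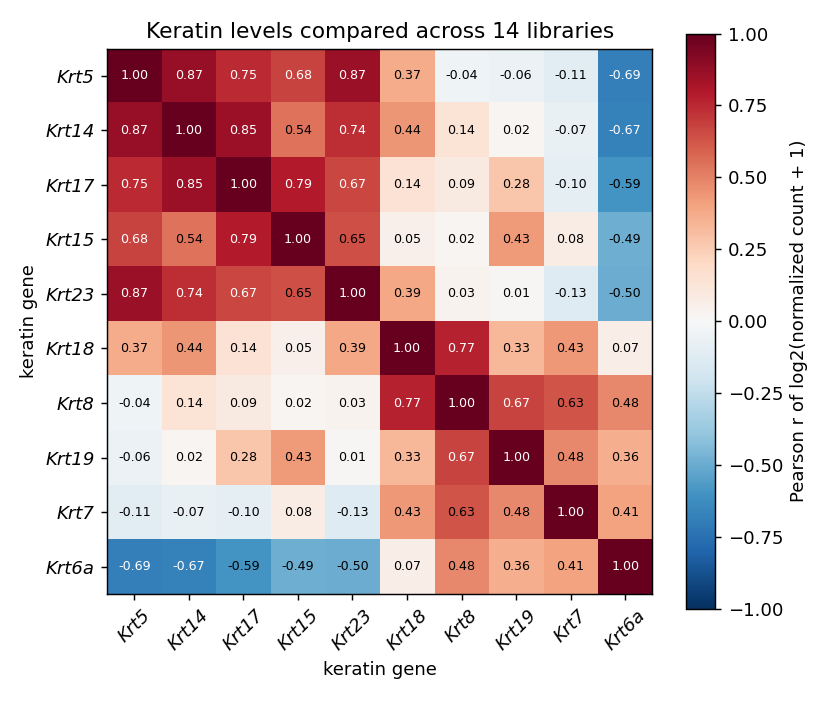
Pearson r between the log2(normalized count + 1) levels of each pair of keratins over the 14 libraries, from blue (-1) to red (1). Krt5, Krt14, Krt17, Krt15 and Krt23 form a red block, Krt8, Krt18, Krt19 and Krt7 a paler one, and Krt6a is blue against the first block.

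Markers of the epithelial layers were compared with the keratins in the same libraries. The basal and myoepithelial list (14 of 14 genes in the table) opens with Trp63, a regulator of basal identity, and the contractile genes Acta2 and Myh11, at means of 1368, 46334 and 34133 normalized counts. Its mean log2 level lay between 12.47 and 12.90 in WT and between 12.36 and 12.93 in Usp22 OE/OE. The mean log2 level of Krt5 and Krt14 had an r of 0.46 with this list in WT, 0.44 in Usp22 OE/OE and 0.76 over the pair ratios. Its r with the list of luminal progenitor and alveolar genes (12 of 12, opening with Kit, Elf5 and Aldh1a3 at means of 6014, 1655 and 15891) was 0.89, 0.90 and 0.74. The order of these lists was not stable. Without the 2 farthest samples r was 0.83, 0.78 and -0.56 with the basal list and 0.76, 0.41 and 0.40 with the progenitor list. Krt6a had an r of 0.82 in WT, 0.86 in Usp22 OE/OE and 0.54 over the pair ratios with hormone-sensing luminal genes (12 of 12, opening with the receptors Esr1, Pgr and Prlr at 4769, 9743 and 72677), and of 0.82, 0.44 and 0.71 without the 2 farthest samples. These relations, with n = 7 each, were also chosen after the values were seen.

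Over all gene lists used here, 17 of 177 genes passed limma's test, 9.60%, against 3.81% of the whole table, 7 of them higher and 10 lower in Usp22 OE/OE. The lists were chosen with earlier results of these data known, and 5 of the 17 were adipocyte genes. The higher share is therefore no result about epithelial or keratin-related genes. The exact sign-flip p beside a gene can be no smaller than 0.0156. Among basal genes, 1 of 14 rose, the Notch ligand Jag2 (log2 fold change 0.22 ± 0.09, exact sign-flip p = 0.0625). Among luminal progenitor and alveolar genes, 1 of 12 fell, the retinaldehyde dehydrogenase Aldh1a3 (-0.46 ± 0.13, exact sign-flip p = 0.0156), which was lower in 7 of 7 pairs. None of 12 hormone-sensing genes passed. Among pan-epithelial genes, which open with Epcam, Cdh1 and Cldn3 (means 48895, 43218 and 7756), 2 of 12 rose, the tight junction gene Cldn7 (0.35 ± 0.09, exact sign-flip p = 0.0156) and the transcription factor Elf3 (0.43 ± 0.13, exact sign-flip p = 0.0469). The mean log2 level of this list was higher in Usp22 OE/OE in 6 of 7 pairs, from 12.64 to 13.27 in WT and from 12.71 to 13.43 in Usp22 OE/OE. Of 21 alternatives, Jag2 kept its call in 11, Aldh1a3 in 20 and Cldn7 and Elf3 in 19 each. The adjusted p of every list gene was 1.00 in limma. Of the 17 genes called, 9 kept their call without the block and 2 with the pan-epithelial score as a covariate.

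Partners of keratin filaments were described next. Desmosome and linker genes, which tie keratin filaments to cell junctions, had 2 of 15 that rose, plakoglobin (Jup, 0.25 ± 0.10, exact sign-flip p = 0.0469) and desmocollin (Dsc2, 0.24 ± 0.09, exact sign-flip p = 0.0469). Desmoplakin (Dsp), the filament anchor, was at a mean of 14280 and the plakophilin Pkp1 at 6766, and neither passed. Of genes that modify or fold keratins, 2 of 11 rose, the small heat shock protein gene Hspb1 (0.44 ± 0.17, exact sign-flip p = 0.0781) and the keratin organizer Fam83h (0.23 ± 0.10, exact sign-flip p = 0.0938), while Tchp, Fbf1 and Sfn, at means of 183, 1939 and 48917, did not pass. Of 21 alternatives, Jup kept its call in 12, Dsc2 and Hspb1 in 13 each and Fam83h in 9. Hspb1 was at -0.01 with the pan-epithelial covariate. None of 18 transcription regulators of keratin genes passed, among them Trp63, Klf4 (mean 25795) and Klf5 (7891). None of 10 other intermediate filament genes in the table (of 14 listed) passed, including vimentin (Vim, 26294), desmin (Des, 1077) and Gfap (35.5). The median fold changes of these lists were 0.08, 0.07, 0.13 and -0.11.

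The table held 16 other keratins, of which 10 had a mean of at least 100 normalized counts. Only Krt42, a type I keratin, passed the test. It lay between 176 and 625 normalized counts (median 268) in WT and between 124 and 481 (median 133) in Usp22 OE/OE, and fell by 0.62 on the log2 scale (SE 0.15, limma p = 0.00282, adjusted p = 1.00, exact sign-flip p = 0.0156), being lower in 7 of 7 pairs. It shared no window with another gene, and its p was 0.0878 without the block. The other 9 had p-values between 0.125 and 0.902. They were Krt80 (1452 to 2932 normalized counts), Krt16 (364 to 2845), Krt78 (68.3 to 695), Krt4 (27.5 to 826), Krt6b, Krt77, Krt1, Krt10 and Krt71.

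The epidermal keratins Krt10 and Krt1 stood out in 3 libraries. Krt10, a keratin of the upper layers of the epidermis, was at 1864 normalized counts in the WT mouse of pair 1, 1226 in the Usp22 OE/OE mouse of pair 6 and 2700 in that of pair 8, against 22.7 to 97.0 in the other 11 libraries. Its partner Krt1 was at 346, 833 and 2198 in these libraries, against 8.16 to 29.2. Krt71, an inner root sheath keratin of the hair follicle, was at 1137 in the Usp22 OE/OE mouse of pair 6 and at most 69.9 elsewhere. Krt77 and Ivl did not follow this split. Krt77 was at 1462 in the WT mouse of pair 1 and 776 in the Usp22 OE/OE mouse of pair 7, but at no more than 110 in the Usp22 OE/OE mice of pairs 6 and 8. Ivl, a component of the cornified envelope, was highest in the Usp22 OE/OE mouse of pair 7 (267). The list of epidermis and hair follicle genes (12 of 16 in the table, none called) had a mean log2 level of 6.41 to 9.24 in WT and 6.38 to 9.52 in Usp22 OE/OE, highest in the same 3 libraries.

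In the 3 libraries highest in Krt10, Krt14 and Krt5 stayed within the range of the other 11, while Krt19 had its lowest value of all 14 libraries (52547) in 1 of the 3, the Usp22 OE/OE mouse of pair 6. Krt14 was at 43476, 24910 and 29371 and Krt5 at 20114, 11782 and 12989. In the WT mouse of pair 1, Krt5 and Krt15 (4421) were the highest in WT, while Krt14, Krt17 and Krt6a were not. Without pairs 1, 6 and 8, 0 of 10 members were called, with log2 fold changes of 0.17 for Krt14, 0.10 for Krt5 and 0.56 for Krt6a. With the epidermal list as a covariate Krt6a was called by limma (0.85), against an exact sign-flip p of 0.188 without it. This covariate and the removal of pairs 1, 6 and 8 were added after the values were seen. The mean change within pairs of the log2 ratio of basal to luminal keratins was 0.08 over the other 4 pairs. Among these, the Usp22 OE/OE mouse of pair 4 had a mean log2 level of the epidermal list of 8.35, against 7.32 in its littermate. Krt15 and Krt17 were highest in that same Usp22 OE/OE mouse.

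**Figure D5:**
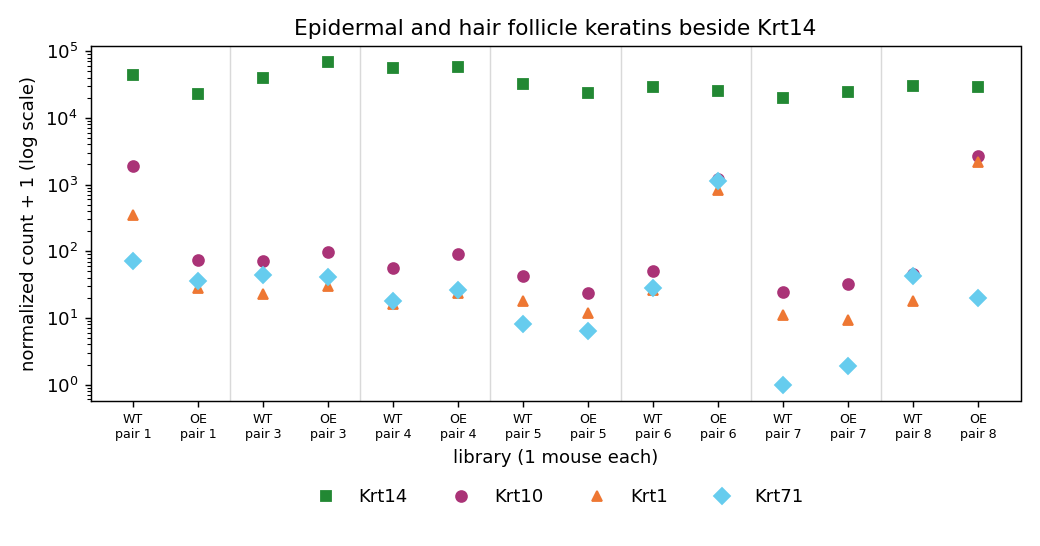
Normalized counts plus 1 (log scale) of Krt14 and of the epidermal and hair follicle keratins Krt10, Krt1 and Krt71 in each of the 14 libraries, ordered by littermate pair. Krt10 and Krt1 are high in the WT mouse of pair 1 and the Usp22 OE/OE mice of pairs 6 and 8, Krt71 in the Usp22 OE/OE mouse of pair 6, while Krt14 in these libraries lies within the range of the others.

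Markers of other cells were measured beside these results. Adipocyte genes fell in 5 of 10 (Adipoq, Plin1, Cidec, Cfd and Retn, with log2 fold changes from -1.33 to -1.17), against 1.85% of all genes. The mean log2 level of the list was lower in Usp22 OE/OE in 6 of 7 pairs (6.95 to 8.65 in WT, 6.23 to 8.13 in Usp22 OE/OE). Of 20 alternatives, Plin1 and Cidec kept their call in 20, Adipoq in 18 and Retn in 13. Cfd kept its call in 20 of 21. The adipokine Adipoq was at only 5.39 to 126 normalized counts, and Adipoq, Plin1, Cidec and Retn had means below 50. Fibroblast genes fell in 2 of 10, the matrix gene Lum (-0.53 ± 0.18) and the growth factor receptor Pdgfra (-0.40 ± 0.14), and the collagens Col1a1, Col1a2 and Col3a1, at means of 25073, 29214 and 23687, did not pass. The fibroblast list lay between 12.52 and 13.55 in WT and between 11.79 and 13.18 in Usp22 OE/OE. Lum and Pdgfra kept their call in 17 of 21 alternatives each. With the pan-epithelial score as a covariate, only Plin1 and Cidec of these adipocyte and fibroblast genes kept their call. None of 10 endothelial genes passed (opening with Pecam1, Cdh5 and Kdr, means 14145, 10299 and 3622), none of 10 macrophage genes (Adgre1, Csf1r and Cd68, 384, 1200 and 449) and none of 8 lymphocyte genes in the table (Cd3e, Cd3d and Cd2, 24.8, 16.9 and 25.7). The lymphocyte list had a mean log2 level of 7.68 in the WT mouse of pair 1. It was at most 5.34 in the other WT libraries and between 4.17 and 5.53 in Usp22 OE/OE. Of 10 proliferation genes 1 fell, the mitotic kinase Aurka (-0.39 ± 0.12), with Mki67, Top2a and Ccnb1 at means of 844, 1007 and 153. The part of these cells in the keratin values was not tested.

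Libraries also differed in how levels changed with gene length. The slope of the log2 level, relative to the mean of each gene, on log2 exon length ran from -0.23 to 0.31 per doubling. It was alike in most littermates (such as -0.22 and -0.23 in pair 4). It was less so in pair 5 (0.16 in WT and 0.31 in Usp22 OE/OE) and pair 8 (0.016 and 0.13). The mean log2 level of Krt5 and Krt14, with 2197 and 1758 bases of exon, had an r of -0.85 with this slope in WT and -0.67 in Usp22 OE/OE, chosen after the values were seen, and -0.05 over the pair ratios. For Krt8 and Krt18 r was -0.60, -0.82 and -0.41. Without the 2 farthest samples r was -0.75, -0.23 and 0.03 for Krt5 and Krt14 and 0.54, -0.59 and 0.42 for Krt8 and Krt18, so several of these values rested on those samples. Krt23 had an r with the slope of -0.54 in WT, -0.91 in Usp22 OE/OE and -0.42 over the pair ratios. Without the 2 farthest samples these were -0.06, -0.79 and -0.16. The part of the slope in the correlation of Krt23 with Krt5 was not tested. With the slope as a covariate, added after the values were seen, 0 of 10 members were called.

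The genes most like the basal pair were sought among 12064 genes with a mean of at least 100 normalized counts. Over the 14 libraries the closest to the mean of Krt5 and Krt14 were Mplkip (r = 0.94), the growth factor Mdk (0.94), Rab5if (0.94), Larp7 (0.93) and Anp32b (0.92). Mdk ranged from 287 to 1839 normalized counts. Those closest to the mean of Krt8 and Krt18 were the annexin Anxa2 (0.93), Oser1 (0.92), the GTPase Rhoa (0.92), Bcl7b (0.91) and the actin nucleator subunit Arpc2 (0.91). Anxa2 ranged from 25164 to 55410. None of these 10 genes was called between genotypes.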

How the data were processed

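RNA from MECs of 7 littermate pairs was sequenced by the authors (2 × 75 bases). Per the labels and methods, reads were mapped to mm10 with TopHat2 2.0.10, counted per GENCODE gene with HTSeq 0.6.0 and divided by DESeq 1.18.0 size factors. The deposited values are thus a linear signal, normalized counts, and 100% of them could be turned back into whole fragments (tolerance 0.01), which gave the depth. Exon lengths and transcripts came from GENCODE M21 (GRCm38), whose identifiers matched all 16124 genes.

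The test was limma 3.58.1 (R 4.3.3) with a trend on log2(normalized count + 1), a scale that understates changes of low genes, with the pair as a block, as the study paired littermates. Deviations from genotype means correlated between littermates (0.17 to 0.75, median 0.52). The 42 other combinations of libraries overlapped this range (-0.54 to 0.63, median -0.15). The threshold was the study's unadjusted p of 0.05, and Benjamini-Hochberg values are over all genes. Alternatives included edgeR 4.0.16 and DESeq2 1.42.0, and the test was checked on simulated data. Named genes were all members, other keratins with a mean of 100 or more, the first 3 and the called genes of each list, and the 5 genes most like each pair. Members and lists were chosen with earlier results of these data known. Nothing says that a mouse was sampled more than once.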

Additional observations from a re-analysis of the deposited data

How the results depend on the processing

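The spread between mice set the precision, with an SD of the pair log2 ratios from 0.26 (Krt8) to 2.12 (Krt15). Of 210 values (10 members under 21 alternatives), 176 kept their direction and side of the threshold, 31 changed sign and 3, all of Krt6a, passed the threshold. The cause was not tested. Without the replicate block, 182 genes had a p of 0.05 or less, and with the pan-epithelial score as a covariate 192. Leaving out each pair gave 381 (pair 6) to 1366 (pair 4) genes, 1196 without pair 1. For the members, it gave 0 or 1 called (1, Krt6a, without pair 4 or 8). Krt6a was also called, as 1 of 10, with the epidermal score, which was added after seeing the data. The block changed no call of a member. The mean change within pairs of the log2 ratio of basal to luminal keratins moved between -0.21 and 0.12 when a pair was left out. Under other definitions it moved between -0.12 and -0.06.

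These fold changes changed sign. With the pan-epithelial covariate, Krt5 was at 0.24, Krt14 0.064, Krt15 0.47, Krt6a -0.21, Krt7 0.028, Krt8 -0.14, Krt18 -0.16, Krt19 -0.11 and Hspb1 -0.0055. With quantile normalization, Krt8 was at -0.12, Krt18 -0.046 and Krt19 -0.026. On untransformed counts, Krt5 was at 0.030, Krt14 0.015 and Krt15 0.65. With median centring, Krt5 was at 0.0051. Leaving out a pair changed the sign of Krt5 (-0.14 to 0.18), Krt14 (-0.21 to 0.079), Krt15 (-0.83 to 0.28), Krt17 (-0.40 to 0.024), Krt7 (-0.14 to 0.038), Krt8 (-0.021 to 0.11) and Krt18 (-0.0052 to 0.14). Values added after seeing the data were, without pairs 1, 6 and 8, Krt5 0.10, Krt14 0.17, Krt15 0.19 and Krt17 0.18, and for Krt7 0.0058 with the epidermal score and 0.033 with the length slope.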
